A study of Mus musculus with 24 samples.

Results

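Transcript levels of 9 mouse genes that mark neutrophils or regulate granulocytes were followed tumor by tumor: S100a8, S100a9, Retnlg, Csf3r, Cxcr2, Ly6g, Csf3, Csf2 and Il1b. They were chosen by gene symbol, and all 9 were found among the 35275 genes of the cell table and the 54532 genes of the tumor table. RNA-seq was available for 24 libraries in 6 groups. D2.1 and D2A1 are mammary tumor lines derived from D2 hyperplastic alveolar nodules of BALB/c mice, of which D2.1 behaves as dormant and D2A1 as proliferative, and each was sequenced as cultured cells (n = 3 per line). Cells of each line were also placed in the fat pads of the mammary gland. The female hosts were either BALB/c mice with a full immune system (n = 4 tumors per line) or SCID-beige mice, which lack T and B cells and have defective NK cells (n = 5 tumors per line). The labels name no edited gene and no agent for any group, all tumors of a line came from that 1 line, and whole snap-frozen tumors were extracted, so that host cells contributed RNA. Hosts were young adult mice. Since nothing in the labels says that replicate cultures were grown separately, p-values for cultured cells measure only the spread between these samples.

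Neutrophils are short-lived phagocytes made in the bone marrow under the control of granulocyte colony-stimulating factor, the product of Csf3, which acts through the receptor encoded by Csf3r. They leave the marrow and enter tissue along gradients of CXC chemokines read by the receptor CXCR2, and their cytoplasm is filled with calprotectin, the complex of the S100a8 and S100a9 proteins. In tumors, interleukin 1 beta and colony-stimulating factors are known to expand and recruit these cells, and monocytes and macrophages can also express Il1b, S100a8, S100a9 and Csf3r.

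The DNA before the transcription starts of 5 genes is shown so that the genes that varied in step (S100a8, S100a9 and Il1b) can be set beside the receptor genes that differed between the lines (Csf3r and Cxcr2). Windows are the 250 bases before the start in RefSeq on build GRCm38.p6, written 5′ to 3′ on the strand of the gene. An entry was found for 8 of the 9 genes and not for Csf3. The GENCODE M21 genes of S100a8, Csf3r and Cxcr2 begin within their windows, so only the 157, 141 and 245 bases before those earlier starts are printed. Capitals mark matches on either strand to the letters TATAAA, which the general transcription machinery binds near a start. They also mark TTNNGNAA, a core of sites for C/EBP factors, which drive granulocyte genes. The last motif marked is GAGGAA, a core of sites for PU.1, a factor of myeloid cells.
S100a8 upstream, chr3:90668821-90668977, plus strand: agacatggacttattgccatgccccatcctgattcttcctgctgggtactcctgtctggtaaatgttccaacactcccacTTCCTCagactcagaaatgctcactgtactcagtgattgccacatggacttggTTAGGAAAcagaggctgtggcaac
S100a9 upstream, chr3:90695722-90695971, minus strand: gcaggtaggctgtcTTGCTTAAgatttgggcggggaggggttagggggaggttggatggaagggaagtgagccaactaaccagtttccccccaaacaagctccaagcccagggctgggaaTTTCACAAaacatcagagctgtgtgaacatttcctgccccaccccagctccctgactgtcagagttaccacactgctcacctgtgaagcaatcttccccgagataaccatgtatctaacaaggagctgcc
Il1b upstream, chr2:129371140-129371389, minus strand: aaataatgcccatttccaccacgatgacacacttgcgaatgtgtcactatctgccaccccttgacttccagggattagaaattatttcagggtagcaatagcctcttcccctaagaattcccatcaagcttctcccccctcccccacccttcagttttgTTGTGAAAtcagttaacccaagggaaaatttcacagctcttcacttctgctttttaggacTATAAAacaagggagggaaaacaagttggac
Csf3r upstream, chr4:126024409-126024549, plus strand: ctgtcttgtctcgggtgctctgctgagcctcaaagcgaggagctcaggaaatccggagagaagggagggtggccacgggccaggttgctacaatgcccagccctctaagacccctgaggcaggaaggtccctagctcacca
Cxcr2 upstream, chr1:74153744-74153988, plus strand: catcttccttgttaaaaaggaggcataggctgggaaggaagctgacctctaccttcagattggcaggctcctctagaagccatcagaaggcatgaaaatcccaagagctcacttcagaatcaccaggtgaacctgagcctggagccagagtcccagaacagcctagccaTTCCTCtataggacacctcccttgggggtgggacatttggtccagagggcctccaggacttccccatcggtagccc
TTNNGNAA matched 1 time in the printed bases of S100a8, 2 times in S100a9 and 1 time in Il1b, and not in those of either receptor gene. It also matched in the windows of Retnlg, Ly6g and Csf2, which are not printed, so it was not particular to the genes that varied in step. GAGGAA matched 1 time in S100a8 and 1 time in Cxcr2, both on the opposite strand. Among the printed bases TATAAA matched in Il1b alone, 31 bases before the start. The windows of Ly6g, not printed, held both TATAAA and GAGGAA. In the 93 bases of the S100a8 window that GENCODE counts to the gene, TATAAA lay 30 bases before the RefSeq start next to a further GAGGAA match, and the 109 such bases of Csf3r held 1 GAGGAA match. Of 32851 promoter windows of 250 bases, 12.4% held TATAAA, 36.8% held TTNNGNAA and 23.3% held GAGGAA, so such matches are common.

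Depth was 13566949 to 18355153 counts per tumor library and 16837260 to 24818234 per library of cultured cells. A floor of 3 counts equals 0.161 to 0.209 CPM (counts scaled to a common library size with edgeR's TMM factors) in tumors and 0.133 to 0.173 CPM in cultures, which covers counting error only. Replicates 1 and 4 of the D2.1 tumors in BALB/c mice stood apart by transcripts of other tissues. Their summed skin keratinocyte markers were 48.4 and 139.8 CPM against 0.749 to 4.95 CPM in all other tumors, and their summed milk protein genes were 501.2 and 60.4 CPM against 0.123 to 5.97 CPM, so results on these tumors are also given without them where a call changed. Replicate 5 of the D2A1 tumors in SCID-beige mice had summed red cell and platelet genes of 1694.7 CPM against 31.6 to 230.7 CPM in all other tumors. T, B and NK cell markers, which check the hosts, summed to 82.4 to 217.7 CPM in D2.1 tumors from BALB/c mice and 12.4 to 31.8 CPM in those of SCID-beige mice, and to 5.95 to 19.4 and 0.946 to 3.54 CPM in D2A1 tumors.

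Per gene length, Il1b was the most abundant of the 9 genes in tumors, with a median of 42.9 FPKM (fragments scaled by gene length and library size) over 18 tumors. It was followed by S100a9 (24.9 FPKM), Csf3r (16.8 FPKM) and S100a8 (12.4 FPKM). Cxcr2 had a median of 1.64 FPKM, Retnlg 0.877, Csf3 0.505 and Csf2 0.188 FPKM, and the median of Ly6g was 0. In the 6 libraries of cultured cells, 8 of the 9 genes had at most 9 counts, and Csf3 alone had more. S100a8 had 0 to 2 counts in D2.1 cultures and 4 to 9 in D2A1 cultures, which did not overlap (2-sided exact permutation p = 0.1, the smallest that 3 against 3 allow). Csf3r and S100a9 had at most 2, Il1b had at most 4 and Csf2 at most 2. Retnlg, Cxcr2 and Ly6g had 0 counts in every culture. Levels in tumors and cultures come from tables normalized separately, with other gene lengths behind the FPKM values, and were not tested against each other. In bulk tumors, fewer cells of a type and less RNA per cell cannot be told apart.

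The genes were first checked against what defines neutrophils. Ly6g, the surface antigen by which mouse neutrophils are usually sorted, had no more than 3 counts in any of the 18 tumors and 0 in 14 of them. It was at 1 count in replicate 3 of the D2.1 tumors in BALB/c mice, at 2 counts in replicates 2 and 3 of those from SCID-beige mice and at 3 counts in replicate 4 of the D2A1 tumors in SCID-beige mice. All of these are at or under the floor. Ly6g belongs to a family of closely similar genes, and whether reads shared with its relatives were left uncounted was not tested. Of 18 granule and effector genes, 14 to 16 had a count in each tumor group, and their sum was 1036.3 to 2232.7 CPM over the tumors. Much of that sum was Lyz2, which averaged 888 CPM in D2.1 and 1370 CPM in D2A1 tumors of BALB/c mice. In SCID-beige mice it averaged 1100 and 1160 CPM. Mmp9 averaged 421 and 559 CPM in the D2.1 tumors of BALB/c and SCID-beige mice, so the sum says little about the other granule genes. How much of it came from neutrophils was not tested. Of a list of 20 neutrophil genes, mostly surface receptors, 19 or 20 had a count in each group, with sums of 127.4 to 268.0 CPM. It is called the surface receptor list below, but it also holds Slpi, Asprv1, Hdc and G0s2, which do not encode surface receptors. Stfa1 (a stefin of myeloid cells) was at 0 in every tumor. Elane (neutrophil elastase) was at 0 in every D2A1 tumor of BALB/c mice and every D2.1 tumor of SCID-beige mice. Ctsg (cathepsin G) was at 0 in every D2A1 tumor of both hosts. Of 2 genes of neutrophil granules, Ngp was at 0 in every D2.1 tumor of both hosts and Camp in every D2.1 tumor of SCID-beige mice. Markers of macrophages and monocytes summed to 1011.1 to 3256.3 CPM over the tumors. How much of the level of S100a8, S100a9, Csf3r or Il1b came from either cell type was not tested.

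**Figure D1:**
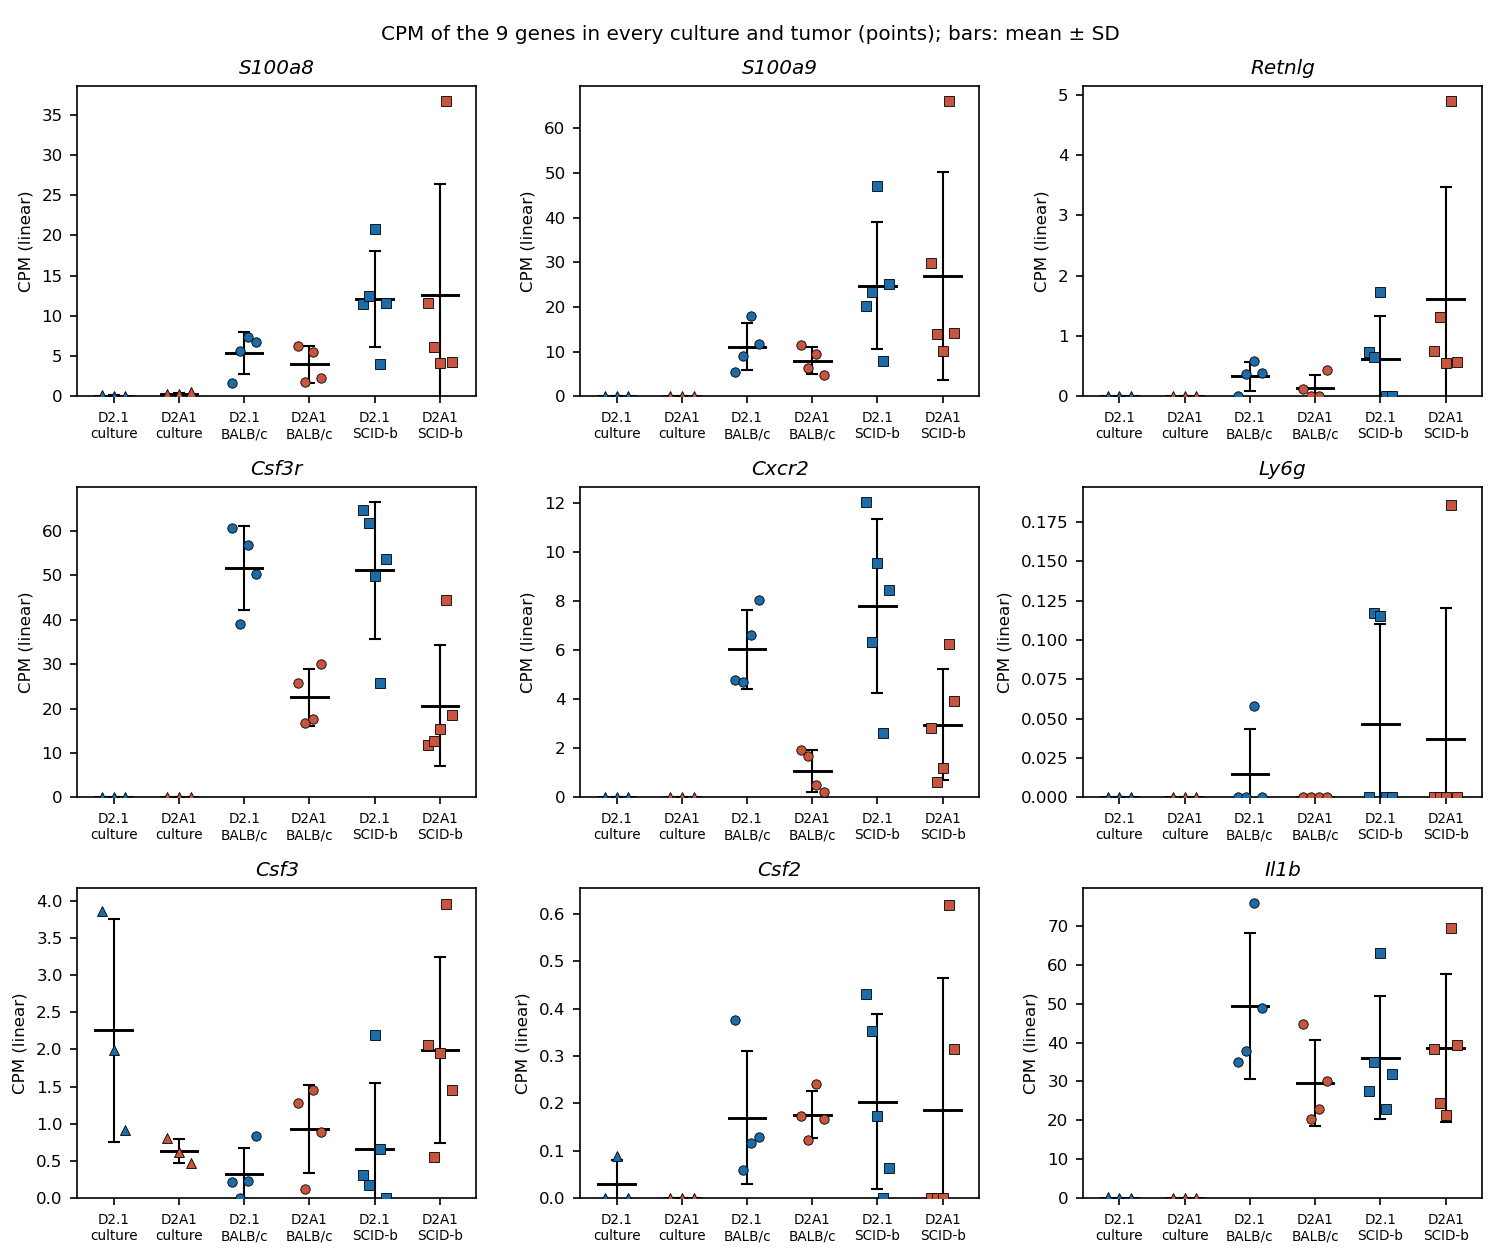
CPM on a linear axis of each of the 9 genes in the 3 libraries of each cultured line (triangles), the 4 tumors per line grown in BALB/c hosts (circles) and the 5 in SCID-beige mice (squares, SCID-b). D2.1 is blue and D2A1 red, horizontal bars are means, vertical bars SD (axes begin at 0), and Csf3r in both hosts and Cxcr2 in BALB/c mice are seen to be higher in D2.1 tumors, while 1 D2A1 tumor in a SCID-beige mouse tops its group in every panel.

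S100a8 (ENSMUSG00000056054, GRCm38 chromosome 3, 90668978 to 90670035) and S100a9 (ENSMUSG00000056071, chromosome 3, 90692632 to 90695721) encode the subunits of calprotectin and varied together from tumor to tumor. S100a8 was at 1.66, 5.61, 7.37 and 6.81 CPM in the D2.1 tumors of BALB/c mice and at 6.26, 1.73, 5.50 and 2.33 CPM in the D2A1 tumors. In SCID-beige mice it was at 11.5, 12.4, 20.8, 4.06 and 11.7 CPM in D2.1 tumors and at 11.6, 6.11, 4.18, 36.7 and 4.29 CPM in D2A1 tumors. The ranges of all 4 tumor groups overlapped, the highest tumor being replicate 4 of the D2A1 tumors in SCID-beige mice, and the range over the 18 tumors was 22.1-fold. S100a9 was at 5.47, 9.11, 18.1 and 11.8 CPM in D2.1 and 11.5, 6.32, 9.42 and 4.72 CPM in D2A1 tumors of BALB/c mice, and at 20.3, 23.3, 47.2, 7.94 and 25.1 CPM in D2.1 and 29.9, 14.0, 10.0, 66.2 and 14.2 CPM in D2A1 tumors of SCID-beige mice. Its highest tumor was the same one as for S100a8, and its range was 14.0-fold. Per length, the ratio of S100a9 to S100a8 was 1.55 to 3.48 with a median of 2 over the 18 tumors. The correlation of their deviations from the group means was 0.944 over 18 tumors, and 0.916 without replicate 4 of the D2A1 tumors in SCID-beige mice, which describes libraries that share their depth and normalization.

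Retnlg (ENSMUSG00000022651, chromosome 16, 48872621 to 48874496), a resistin-like gene of mature neutrophils, was low in most tumors. It had 0, 6, 10 and 6 counts in D2.1 and 2, 0, 0 and 8 counts in D2A1 tumors of BALB/c mice, and 12, 11, 30, 0 and 0 counts in D2.1 and 11, 19, 8, 79 and 9 counts in D2A1 tumors of SCID-beige mice. The D2A1 tumors of the 2 hosts did not overlap, at 0.140 ± 0.210 CPM (SD, n = 4) in BALB/c and 1.62 ± 1.85 CPM (n = 5) in SCID-beige mice. Retnlg failed the expression filter there, and the 2-sided exact permutation test of log2 CPM gave p = 0.0159, the smallest that 4 tumors against 5 allow. Of 17 such permutation tests on the genes and comparisons that failed the filter, it was the 1 with an unadjusted p under 0.05. Between the lines Retnlg overlapped in both hosts (2-sided exact permutation p = 0.4 in BALB/c mice, and a log2 fold change of -1.37 ± 0.95 with adjusted p = 0.302 by edgeR in SCID-beige mice).

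Csf3r (ENSMUSG00000028859, chromosome 4, 126024550 to 126044440), the receptor through which granulocyte colony-stimulating factor drives neutrophil production, was higher in D2.1 than in D2A1 tumors in both hosts. In BALB/c mice it was at 60.6, 39.1, 56.8 and 50.4 CPM in D2.1 tumors and 25.8, 16.8, 17.6 and 30.0 CPM in D2A1 tumors. These groups did not overlap, and the log2 fold change was 1.20 ± 0.23 (SE; 51.7 ± 9.42 against 22.5 ± 6.42 CPM, SD, n = 4 each; adjusted p = 0.00305, edgeR's quasi-likelihood F test, adjusted over all genes by Benjamini-Hochberg). In SCID-beige mice it was at 64.6, 61.8, 49.8, 25.7 and 53.7 CPM in D2.1 tumors and 11.8, 12.8, 15.3, 44.5 and 18.6 CPM in D2A1 tumors. Here replicate 4 of each line crossed into the range of the other, and the log2 fold change was 1.31 ± 0.36 (51.1 ± 15.4 against 20.6 ± 13.6 CPM, SD, n = 5 each; adjusted p = 0.0128, same edgeR test). With each tumor left out in turn, the log2 fold change stayed between 1.08 and 1.37 in BALB/c and between 1.12 and 1.80 in SCID-beige mice, and it passed the threshold each time (highest adjusted p = 0.0118 and 0.037, edgeR). Without the D2.1 tumors in BALB/c mice that held keratin or milk transcripts it was 1.07 (adjusted p = 0.0343, edgeR).

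Cxcr2 (ENSMUSG00000026180, chromosome 1, 74153989 to 74161246), the receptor for the CXC chemokines that draw neutrophils into tissue, was at 4.77, 4.70, 6.62 and 8.04 CPM in D2.1 tumors and 1.91, 1.67, 0.483 and 0.222 CPM in D2A1 tumors of BALB/c mice. Every D2.1 tumor was above every D2A1 tumor, with a log2 fold change of 2.49 ± 0.59 (6.03 ± 1.60 against 1.07 ± 0.844 CPM, SD, n = 4 each; adjusted p = 0.00838, edgeR). Without the D2.1 tumors that held keratin or milk transcripts it was 2.40 (adjusted p = 0.0426, edgeR), and leaving out single tumors gave 2.14 to 2.92 with every adjusted p under the threshold (highest 0.0226, edgeR). In SCID-beige mice Cxcr2 was at 12.0, 6.34, 9.56, 2.63 and 8.44 CPM in D2.1 and 2.82, 0.625, 1.19, 6.25 and 3.91 CPM in D2A1 tumors. These groups overlapped and the log2 fold change of 1.39 ± 0.54 did not pass the threshold (adjusted p = 0.0662, edgeR). It passed without replicate 4 of the D2.1 tumors (1.57, adjusted p = 0.0325, edgeR), without replicate 4 of the D2A1 tumors (1.86, adjusted p = 0.0243, edgeR) and with DESeq2 (adjusted p = 0.0233), and its highest adjusted p with 1 tumor left out was 0.156 (edgeR). The line difference of Cxcr2 was not shown to depend on the host, with an interaction of 1.09 ± 0.84 on the log2 scale (adjusted p = 0.795, edgeR).

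Ly6g (ENSMUSG00000022582, chromosome 15, 75155240 to 75159126) gave no fold in any comparison because all groups were at or under the floor. Between the lines Csf3r passed the test in both hosts and Cxcr2 in BALB/c mice, while neither calprotectin subunit passed it in either host. In BALB/c mice S100a8 differed by 0.44 ± 0.53 (adjusted p = 0.565) and S100a9 by 0.48 ± 0.39 (adjusted p = 0.392, edgeR) on the log2 scale, and in SCID-beige mice by -0.06 ± 0.58 and -0.12 ± 0.52 (adjusted p = 0.951 and 0.886). Without replicate 4 of the D2A1 tumors in SCID-beige mice these last values turned to 0.88 and 0.54, again short of the threshold (adjusted p = 0.164 and 0.404, edgeR). The 95% intervals of S100a8, from -0.60 to 1.48 in BALB/c and from -1.19 to 1.08 in SCID-beige mice, hold differences of either sign. Whether the receptors and the calprotectin genes differ in their response to the line was not tested.

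**Figure D2:**
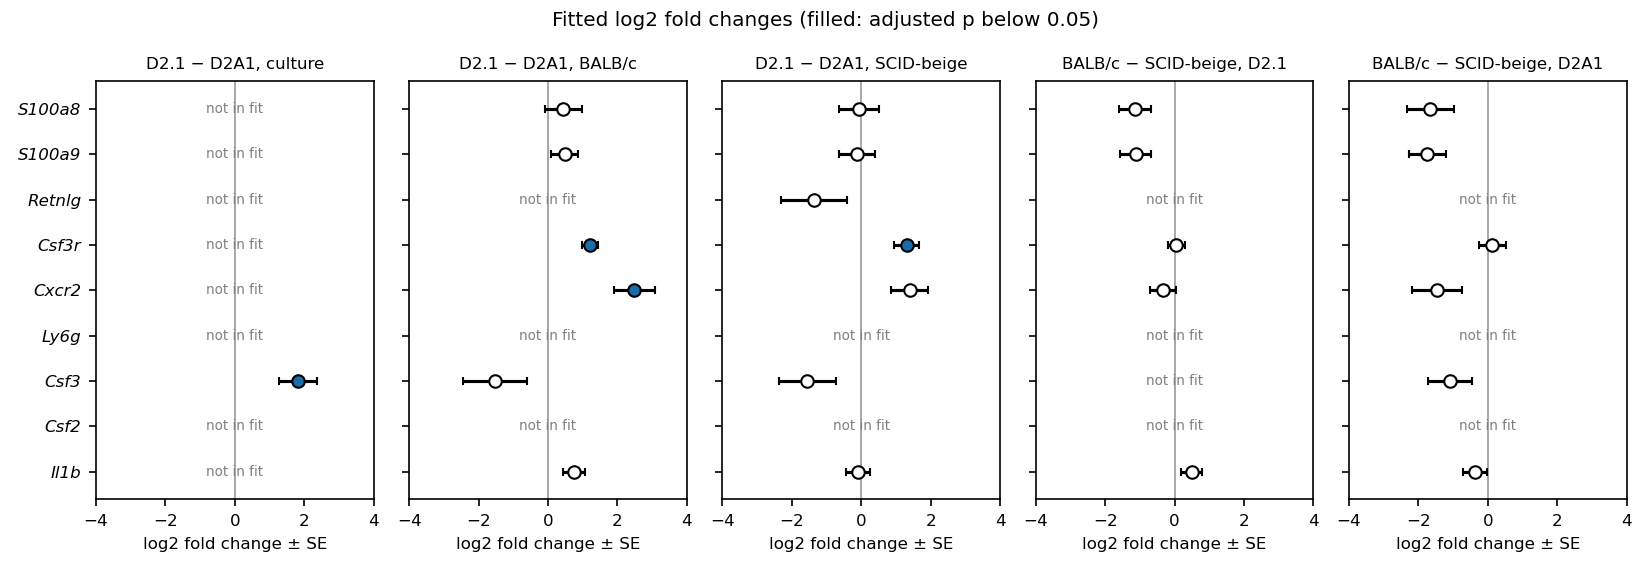
Fitted log2 fold changes with SE (horizontal bars) of the 9 genes in 5 comparisons, with positive values higher in the first-named group and filled points where the adjusted p of edgeR is under 0.05. Filled points are Csf3 in culture (1.82), Csf3r (1.20) and Cxcr2 (2.49) in BALB/c mice and Csf3r (1.31) in SCID-beige mice, and "not in fit" marks genes that failed the expression filter.

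Csf3 (ENSMUSG00000038067, chromosome 11, 98701263 to 98703629) encodes granulocyte colony-stimulating factor and was the 1 member that passed the expression filter in cultured cells. D2.1 cultures had 3.87, 1.99 and 0.911 CPM (71, 45 and 17 counts) and D2A1 cultures 0.807, 0.624 and 0.479 CPM (14, 11 and 9 counts). The cultures did not overlap, and Csf3 was higher in D2.1 cells by 1.82 ± 0.55 on the log2 scale (n = 3 each; adjusted p = 0.0254, edgeR). The call was lost without replicate 1 or 2 of the D2.1 cultures or replicate 2 or 3 of the D2A1 cultures (log2 fold changes of 1.20, 1.90, 1.80 and 1.64; adjusted p = 0.101, 0.0591, 0.0668 and 0.066, edgeR). In tumors the mean was higher in D2A1 than in D2.1 in both hosts. Csf3 was at 0.214, 0, 0.232 and 0.836 CPM in D2.1 and 1.28, 0.124, 1.45 and 0.889 CPM in D2A1 tumors of BALB/c mice, and at 0.307, 0.176, 2.19, 0.657 and 0 CPM in D2.1 and 2.06, 0.556, 1.95, 3.96 and 1.45 CPM in D2A1 tumors of SCID-beige mice. The lines overlapped in both hosts, and the log2 fold changes of -1.54 ± 0.92 and -1.56 ± 0.82 did not pass the threshold (adjusted p = 0.232 and 0.168, edgeR). In SCID-beige mice the value was -2.78 without replicate 3 of the D2.1 tumors, which passed it (adjusted p = 0.018, edgeR). Neighbouring tumor groups in the order of mean Csf3 (D2A1 in SCID-beige, D2A1 in BALB/c, D2.1 in SCID-beige and D2.1 in BALB/c mice) overlapped at each step.

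Csf2 (ENSMUSG00000018916, chromosome 11, 54247271 to 54249667), which encodes granulocyte-macrophage colony-stimulating factor, had 0 to 10 counts per tumor and failed the filter in every comparison. It had 7, 1, 2 and 2 counts in D2.1 and 3, 2, 4 and 3 counts in D2A1 tumors of BALB/c mice, and 7, 6, 3, 0 and 1 counts in D2.1 and 0, 0, 0, 10 and 5 counts in D2A1 tumors of SCID-beige mice. Only 6 of the 18 tumors were above the floor of 3 counts, and a difference between groups was not detectable at this depth (2-sided exact permutation p = 0.771 between the lines in BALB/c and 0.651 in SCID-beige mice).

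Il1b (ENSMUSG00000027398, chromosome 2, 129364570 to 129371139), the precursor of interleukin 1 beta, had the narrowest range of the 5 genes found in every tumor, 3.72-fold over the 18 tumors. In BALB/c mice it was at 35.1, 37.8, 75.9 and 48.9 CPM in D2.1 and 44.8, 20.4, 23.0 and 30.1 CPM in D2A1 tumors. In SCID-beige mice it was at 27.7, 35.0, 63.1, 22.8 and 31.9 CPM in D2.1 and 38.4, 24.5, 21.3, 69.5 and 39.4 CPM in D2A1 tumors. The lines overlapped in both hosts, with log2 fold changes of 0.74 ± 0.31 in BALB/c (adjusted p = 0.0908, edgeR) and -0.09 ± 0.34 in SCID-beige mice (adjusted p = 0.857). In BALB/c mice the difference passed without replicate 1 of the D2A1 tumors (1.01, adjusted p = 0.0336, edgeR).

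Counted over the members, 1 of 1 gene that passed the filter was called in culture, where 44.9% of 12489 genes were called in either direction (24.2% higher and 20.7% lower in D2.1 cells). In BALB/c mice 2 of 6 tested members were called, both higher in D2.1 tumors, against 32.6% of 14953 genes (16.8% higher and 15.8% lower). In SCID-beige mice 1 of 7 was called, against 32.1% of 14355 genes (17.2% higher and 14.8% lower). The median log2 fold change of the tested members was 0.61 in BALB/c and -0.09 in SCID-beige mice, beside -0.02 and 0.02 over all genes tested. The 2 of 6 members in BALB/c mice are a share near the background, and 1 of 7 in SCID-beige mice is below it, so these counts are no result about the members.

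The hosts were compared within each line, with the same tumors as above. None of the tested members passed the threshold (0 of 5 in D2.1 and 0 of 6 in D2A1 tumors by edgeR, beside 0.891% of 14929 and 1.17% of 14572 genes), while S100a8 and S100a9 had lower means in BALB/c than in SCID-beige mice in both lines. S100a8 averaged 5.36 ± 2.58 CPM in BALB/c and 12.1 ± 5.94 CPM in SCID-beige mice in D2.1 tumors, and 3.96 ± 2.26 and 12.6 ± 13.8 CPM in D2A1 tumors (SD, n = 4 and 5). S100a9 averaged 11.1 ± 5.31 and 24.8 ± 14.2 CPM in D2.1 and 8.0 ± 3.06 and 26.9 ± 23.3 CPM in D2A1 tumors. The ranges overlapped in each case, and the log2 fold changes of BALB/c against SCID-beige mice were -1.14 ± 0.47 and -1.12 ± 0.44 in D2.1 tumors (adjusted p = 0.411 and 0.384, edgeR) and -1.66 ± 0.68 and -1.75 ± 0.54 in D2A1 tumors (adjusted p = 0.406 and 0.187). Without replicate 4 of the D2A1 tumors in SCID-beige mice, the tumor with the highest values, those of D2A1 were -0.72 and -1.09. Csf3r differed by 0.05 ± 0.25 in D2.1 and 0.13 ± 0.38 in D2A1 tumors (95% intervals from -0.43 to 0.53 and from -0.61 to 0.87). Cxcr2 differed by -0.34 ± 0.39 and -1.46 ± 0.72, Il1b by 0.49 ± 0.30 and -0.38 ± 0.34, and Csf3 in D2A1 tumors by -1.09 ± 0.64 (adjusted p of 0.558 to 0.875, edgeR). With DESeq2, Retnlg in D2A1 tumors was the 1 member called, lower in BALB/c mice, and at an unadjusted p under 0.05 edgeR gave S100a8 and S100a9 in both lines. The tested members had a median of -0.34 in D2.1 and -1.27 in D2A1 tumors, beside -0.01 and 0.01 over all genes. The interaction of line and host called 0 of 7 members and 0.0187% of 16036 genes (edgeR).

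**Figure D3:**
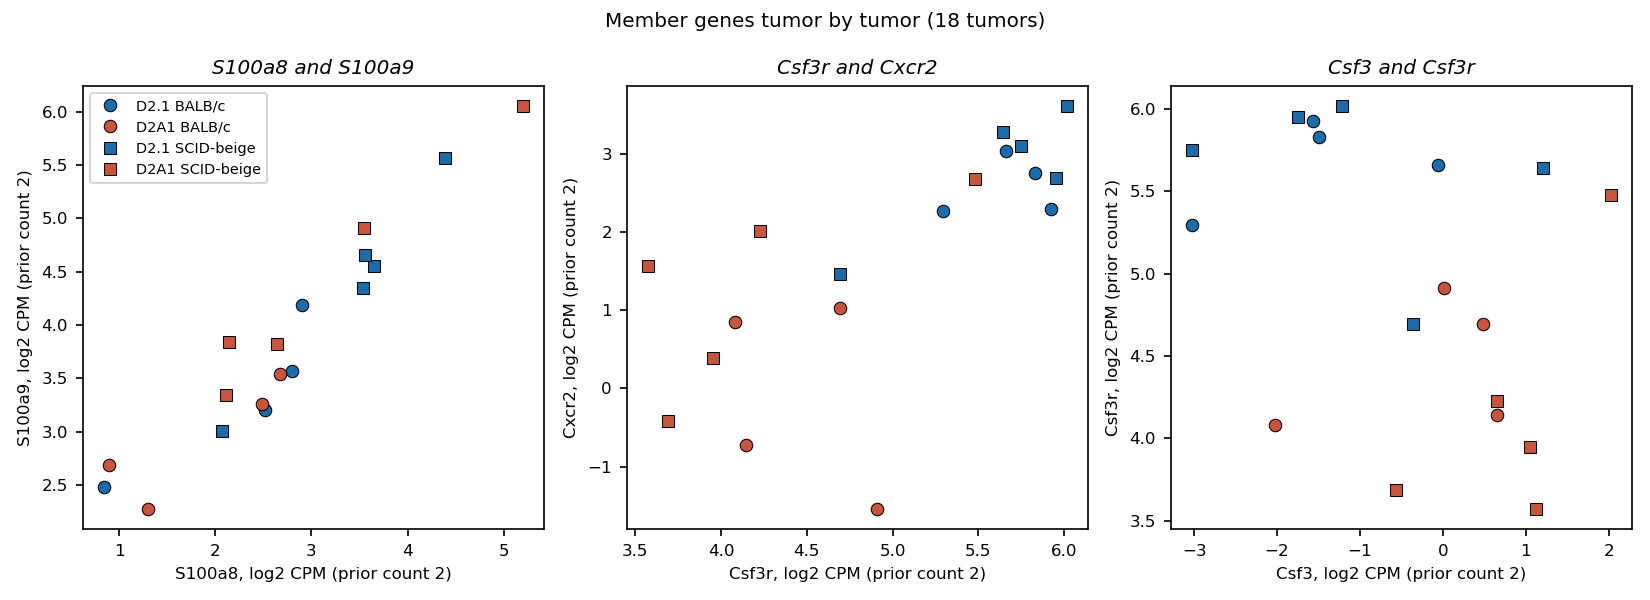
Log2 CPM with a prior count of 2 in the 18 tumors for S100a8 and S100a9, Csf3r and Cxcr2, and Csf3 and Csf3r, with D2.1 in blue, D2A1 in red, circles for BALB/c and squares for SCID-beige hosts. S100a8 and S100a9 fall along one line, whereas for Csf3r and Cxcr2 the lines lie apart in BALB/c mice and overlap in SCID-beige mice, and Csf3 against Csf3r shows no single trend.

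Relations between members were tested over the 18 tumors on deviations from the group means, with 4 pairs in the family. None passed after adjustment. Csf3 and S100a8 had Pearson's r = 0.398 (permutation p = 0.115, adjusted 0.154) and Spearman's rho = 0.515 (permutation p = 0.0455, adjusted 0.11). Csf3 and the gene of its receptor, Csf3r, had r = 0.213 (permutation p = 0.419, adjusted 0.419) and rho = 0.0815 (permutation p = 0.765, adjusted 0.765). Il1b and Csf3r had r = 0.605 (permutation p = 0.0264, adjusted 0.106) and rho = 0.513 (permutation p = 0.0551, adjusted 0.11), and Csf3r and Cxcr2 had r = 0.494 (permutation p = 0.0917, adjusted 0.154) and rho = 0.358 (permutation p = 0.198, adjusted 0.263). Without the 2 tumors farthest from the median of the first gene, r was 0.392, 0.302, 0.464 and -0.03 in this order, so that the value for Csf3r and Cxcr2 rested on replicate 4 of each line in SCID-beige mice. Single tumors weighed on several genes at once. Replicate 4 of the D2A1 tumors in SCID-beige mice was highest of its group for all 9 genes. Its sum over the surface receptor list was 208.5 CPM against 129.4 to 151.3 in the other 4. Its granule and effector genes (1497.5 CPM) and its macrophage and monocyte markers (1337.3 CPM) lay within the ranges of the other 4. Those ranges were 1045.1 to 1509.1 and 1011.1 to 1778.8 CPM. Replicate 4 of the D2.1 tumors in SCID-beige mice was lowest of its group for 8 of 9 genes, ties included, and its macrophage and monocyte markers were also the lowest (1174.3 against 1528.9 to 2507.5 CPM). Its skeletal muscle markers had the highest sum of the group, 268.6 CPM, with 205.4 CPM in replicate 5 and 1.47 to 18.96 CPM in the rest. The part of muscle transcripts and of either tumor in the results was not tested.

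Among 12398 protein-coding genes with a median of at least 1 CPM, those most like each member over the 18 tumors were ranked by Pearson's r of deviations from the group means, as a description over libraries that share depth and normalization. For Il1b they were Cxcl2 (0.873), Cxcl1 (0.855), Zc3h12a (0.852), Nxf1 (0.812) and Hcar2 (0.780). Cxcl1 and Cxcl2 encode chemokines that bind CXCR2, and Zc3h12a encodes regnase 1, which degrades inflammatory transcripts. For S100a9 they were Clec4d (0.809), Cxcl2 (0.799), Mturn (0.781), Cxcl1 (0.767) and Cxcl5 (0.756), and for S100a8 Atp5k (0.807), Ifitm1 (0.779), Clec4d (0.769), Cxcl5 (0.759) and Cxcl2 (0.755). Clec4d is a C-type lectin receptor of myeloid cells, and Il1b itself had r = 0.844 with S100a9 and 0.768 with S100a8. For Csf3r they were Tnfrsf14 (0.869), G0s2 (0.848), Gpr132 (0.848), Grk3 (0.831) and Pik3r5 (0.824), and for Cxcr2 Nr2c1 (0.824), Adamts7 (0.811), Fhl1 (0.806), Kif7 (0.797) and Plcg1 (0.794). No gene was among the first 5 of both receptors, and Clec4d, Cxcl2 and Cxcl5 were among those of both S100a8 and S100a9. Such overlap depends on r between the members themselves (0.494 for the receptors and 0.944 for S100a8 with S100a9), so it is no separate result. Without replicate 4 of the D2A1 tumors in SCID-beige mice, r of the 25 ranked pairs was 0.6 to 0.882, and r of Csf3r with S100a8 fell from 0.511 to 0.150.

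The wider set of genes around the members was read from lists of ligands, receptors, granule proteins and factors. Chemokines that bind CXCR2 were higher in D2.1 cultures in 3 of 3 tested genes, with Cxcl5 at 472 ± 221 against 19.4 ± 6.16 CPM (log2 fold change 4.60 ± 0.44, adjusted p = 5.88e-05), Cxcl1 at 130 ± 73.5 against 10.6 ± 1.41 CPM (3.62 ± 0.41, adjusted p = 0.000158) and Cxcl3 at 9.99 ± 5.62 against 0.704 ± 0.115 CPM (3.81 ± 0.50, adjusted p = 0.000376, edgeR, n = 3 each). In tumors 1 of 4 tested passed in each host, and it was Cxcl5, higher in D2.1 tumors by 2.30 ± 0.42 in BALB/c (adjusted p = 0.00199) and 2.96 ± 0.73 in SCID-beige mice (adjusted p = 0.00707, edgeR). The summed CXCR2 ligands were highest in replicate 3 of the D2.1 tumors in SCID-beige mice (193.1 CPM against 19.3 to 68.5 in the other 4), the tumor highest of its group for S100a8, S100a9, Retnlg, Csf3 and Il1b, and in replicate 4 of the D2A1 tumors in SCID-beige mice (62.6 against 13.8 to 29.6 CPM).

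Of the interleukin-1 family and its processing enzymes, 11 of 11 tested genes were higher in D2.1 cultures, led by Il33 (6.31 ± 0.60), an alarmin, Casp1 (6.18 ± 0.39), the protease that cleaves the Il1b precursor, Casp4 (5.90 ± 0.55) and Il1rl1 (5.84 ± 0.88), the receptor of interleukin 33, while Il1b itself had 4 counts in 1 culture and 0 in the others. The median over the tested genes was 4.93, beside -0.02 over all genes. In BALB/c mice 4 of 15 were called higher in D2.1 tumors and 1 was called lower. Il1rl1 was at 77.5 ± 23.3 against 4.19 ± 1.4 CPM (log2 fold change 4.22 ± 0.31, adjusted p = 6.8e-06) and Casp1 at 46.3 ± 15.6 against 15.7 ± 4.97 CPM (1.56 ± 0.30, adjusted p = 0.00293, edgeR). With the replicate number as a block, 9 were higher and 2 lower, and without the D2.1 tumors that held keratin or milk transcripts 3 were higher and 0 lower. The share of all tested genes that edgeR called in BALB/c mice moved with these settings too, from 32.6% to 47.6% with the block and to 21.3% without those tumors, and the list counts under either setting are read beside these shares. In SCID-beige mice 7 of 15 were higher, among them Il1rl1 (5.04 ± 0.66), Il1rap (2.15 ± 0.41) and Casp1 (2.13 ± 0.25; adjusted p = 6.49e-05, 0.00133 and 2.3e-05, edgeR).

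Colony-stimulating factors and their receptors were called in both directions. Csf1, the macrophage growth factor, was lower in D2.1 than in D2A1 cells, at 205 ± 4.82 against 418 ± 30.6 CPM (log2 fold change -1.02 ± 0.12, adjusted p = 0.000185), and in BALB/c tumors at 109 ± 11.8 against 318 ± 34.1 CPM (-1.54 ± 0.14, adjusted p = 2.46e-05, edgeR). Flt3, a receptor of dendritic cell and other progenitors, was higher in D2.1 tumors by 2.80 ± 0.67 in BALB/c and 3.64 ± 0.49 in SCID-beige mice (adjusted p = 0.00885 and 8.35e-05, edgeR). In all, 2 of 13 tested genes were higher and 3 lower in D2.1 tumors from BALB/c mice, and 5 higher and 2 lower in SCID-beige mice. Without the D2.1 tumors that held keratin or milk transcripts, 0 of 14 were higher and 2 lower in BALB/c mice, so that Flt3 there lost its call.

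Granule and effector genes were called in both directions. Mmp9, the gelatinase of neutrophil granules that macrophages and tumor cells also make, was higher in D2.1 tumors, at 421 ± 35.1 against 50.9 ± 9.67 CPM in BALB/c (log2 fold change 3.05 ± 0.17, adjusted p = 1.22e-06) and 559 ± 91.6 against 69.3 ± 44.0 CPM in SCID-beige mice (3.01 ± 0.33, adjusted p = 1.35e-05, edgeR). Padi4, which modifies histones when neutrophils release their chromatin, was lower in D2.1 tumors, at 0.477 ± 0.483 against 107 ± 10.0 CPM and 2.35 ± 4.40 against 84.7 ± 8.48 CPM (-7.74 ± 0.59 and -5.16 ± 0.88, adjusted p = 7.75e-06 and 0.000567, edgeR). The cultured lines differed in the same direction in both genes, with Mmp9 at 3.96 ± 0.701 against 0.742 ± 0.0958 CPM and Padi4 at 0.174 ± 0.0737 against 18.9 ± 3.29 CPM in D2.1 and D2A1 cells (2.40 ± 0.30 and -6.76 ± 0.33, adjusted p = 0.000291 and 1.49e-06, edgeR). Lcn2, lipocalin 2, was higher in D2.1 cultures (7.95 ± 1.26, adjusted p = 0.00107) and lower in D2.1 tumors of SCID-beige mice (-1.65 ± 0.44, adjusted p = 0.0106, edgeR). The list had 1 gene higher and 1 lower of 8 tested in BALB/c mice, 1 and 2 of 10 in SCID-beige mice, and 2 and 2 of 8 in BALB/c mice with the replicate block. Without the D2.1 tumors that held keratin or milk transcripts it had 1 higher and 3 lower of 8.

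Of 18 tested genes in the surface receptor list, 5 were higher and 2 lower in D2.1 tumors from BALB/c mice, and 1 was higher and 1 lower in SCID-beige mice. Asprv1 and Slpi, which do not encode surface receptors, were among the 5 (2.66 ± 0.895 and 2.06 ± 0.574, adjusted p = 0.0431 and 0.0193, edgeR). Without replicate 4 of the D2.1 tumors in BALB/c mice Asprv1 was at 1.22 (adjusted p = 0.212, edgeR). Without the D2.1 tumors that held keratin or milk transcripts, 3 of 19 were higher and 1 lower in BALB/c mice. Trem1, a receptor that amplifies myeloid inflammation, was lower in D2.1 tumors in both hosts (-2.77 ± 0.38 and -2.0 ± 0.35, adjusted p = 0.000403 and 0.000678, edgeR). Granulocyte transcription factors called in both hosts included Myb (2.56 ± 0.52 and 2.48 ± 0.65) and Cebpa (1.35 ± 0.22 and 1.27 ± 0.14), higher in D2.1 tumors in BALB/c and SCID-beige mice, and Cebpb, which was lower (-0.72 ± 0.20 and -0.90 ± 0.24; adjusted p between 1.77e-05 and 0.0183, edgeR). In culture 3 of 6 tested factors were higher and 0 lower in D2.1 cells, beside 24.2% higher over all genes. Cebpa was among the 3, at 6.13 ± 1.46 against 0.58 ± 0.191 CPM (3.39 ± 0.35, adjusted p = 8.86e-05, edgeR). Gfi1, a repressor needed for neutrophil maturation, was called higher in BALB/c mice (2.50 ± 0.60, adjusted p = 0.00874, edgeR). In all, 4 of 9 factors were higher and 1 lower in BALB/c mice and 3 of 8 higher and 2 lower in SCID-beige mice, and without the D2.1 tumors that held keratin or milk transcripts 3 of 9 were higher and 0 lower in BALB/c mice, so that Cebpb there lost its call. The median log2 fold changes of the 6 lists lay between 0.02 (CXCR2 ligands) and 0.86 (granule genes) in BALB/c mice and between -0.14 (surface receptor list) and 1.02 (interleukin-1 family) in SCID-beige mice, beside -0.02 and 0.02 over all genes. Called in either direction were 38.9% (BALB/c) and 11.1% (SCID-beige) of the surface receptor list, 25% and 30% of granule genes and 25% and 25% of CXCR2 ligands. The shares were 55.6% and 62.5% for transcription factors, 38.5% and 53.8% for colony-stimulating factors and 33.3% and 46.7% for the interleukin-1 family. Over all tested genes they were 32.6% and 32.1%, so counts near these shares are no result about a list.

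Between hosts, 0 genes passed in 4 of these 6 lists in both lines (granule genes, interleukin-1 family, CXCR2 ligands and transcription factors, edgeR). Csf1r, the receptor of the macrophage growth factor, was called in D2A1 tumors (1.04 ± 0.19, adjusted p = 0.0227, edgeR), higher in BALB/c mice. It lost the call without replicate 3 or 4 in BALB/c or 1, 4 or 5 in SCID-beige mice (adjusted p of 0.0535 to 0.129, log2 fold changes of 0.85 to 1.0, edgeR).

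Markers of other immune cells differed between the lines alongside Csf3r and Cxcr2. T, B and NK cell markers were higher in D2.1 tumors in 7 of 7 tested genes in BALB/c and 3 of 3 in SCID-beige mice. The 3 in SCID-beige mice were Klrb1c, Ncr1 and Cd4, whereas Cd3e averaged 0.106 CPM in D2.1 tumors there. Klrb1c was also higher in D2.1 than in D2A1 cultures, at 4.21 against 0.0961 CPM (adjusted p = 0.000497, edgeR). Dendritic cell markers were higher in D2.1 tumors in 5 of 6 in each host, with 1 lower in SCID-beige mice. Without the D2.1 tumors that held keratin or milk transcripts, 2 of 6 dendritic cell and 2 of 13 macrophage markers were higher in BALB/c mice. Macrophage and monocyte markers were higher in 4 of 13 in BALB/c and 6 of 13 in SCID-beige mice. Over all tested genes, 32.6% and 32.1% were called in either direction and 16.8% and 17.2% higher. Cd163 and Mertk, called in both hosts, were also higher in D2.1 than in D2A1 cultures (11.3 against 0.247 and 17.8 against 2.87 CPM). With single tumors left out, Cd163 could lose its call in both hosts (highest adjusted p = 0.101 in BALB/c and 0.0891 in SCID-beige mice, edgeR). Mertk could lose it in BALB/c mice (highest adjusted p = 0.0547, edgeR). The marker sums overlapped between the lines in BALB/c mice (2170.1 to 2644.6 CPM in D2.1 and 1762.2 to 3256.3 CPM in D2A1 tumors). Mast cell, eosinophil and basophil markers were higher in D2.1 tumors in 4 of 4 in SCID-beige mice and in 0 of 4 in BALB/c mice, where edgeR gave no call. Their part in the levels of the 9 genes was not tested.

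**Figure D4:**
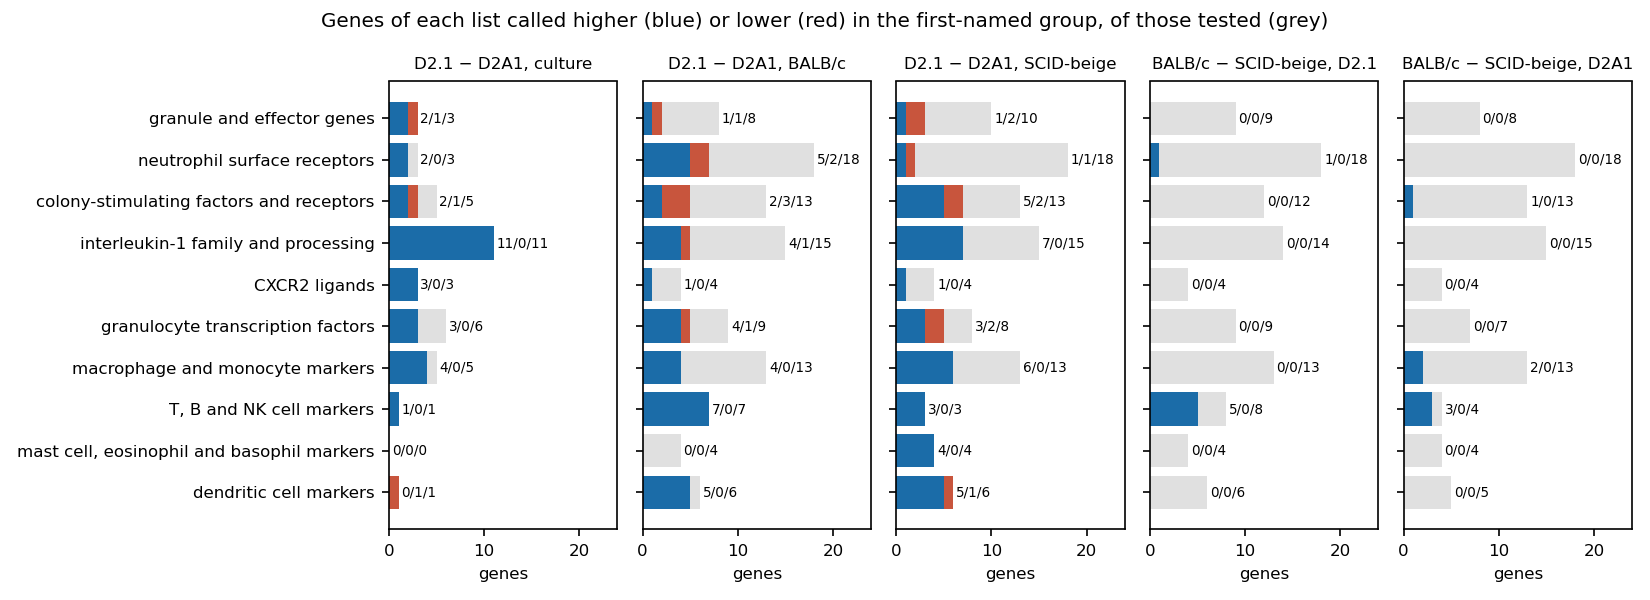
Number of genes in 10 lists that were called higher (blue) or lower (red) in the first-named group, out of those tested (grey), in 5 comparisons at an adjusted p under 0.05 by edgeR. Numbers beside the bars give higher, lower and tested genes. In this plot 11 of 11 genes of the interleukin-1 family were higher in D2.1 cultures, and between hosts the T, B and NK cell list held the most calls (5 of 8 in D2.1 tumors, 3 of 8 without those with keratin or milk transcripts, and 3 of 4 in D2A1 tumors).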

How the data were processed

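RNA-seq libraries of cultured D2.1 and D2A1 cells (3 each) and of their tumors in BALB/c (4 each) and SCID-beige mice (5 each) were analysed. The authors deposited 1 table of read counts per gene for cells and 1 for tumors. According to the study's methods and processing notes, sequencing was by Novogene and the tools named are STAR and the mouse build mm10; the counting program, its strand setting and the annotation are not given in the sources used here. The authors also deposited FPKM values, which equalled counts divided by gene length and library total (within 1% for 100% of genes), and these served only to compare levels between genes. Gene identifiers were matched to GENCODE M21 (GRCm38).

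The counts were tested with edgeR 4.0.16 (R 4.3.3, limma 3.58.1), using TMM normalization, its default filter on low counts, robust quasi-likelihood fits and Benjamini-Hochberg adjustment over all genes tested, with a call at an adjusted p under 0.05. Each comparison was fitted on its own groups, and the interaction on all 18 tumors. SE is the absolute log2 fold change divided by the square root of F. For members that failed the filter, log2 CPM (prior count 2) was permuted exactly between the groups, 2-sided, which cannot go below p = 0.1 for 3 against 3, 0.029 for 4 against 4, 0.016 for 4 against 5 and 0.0079 for 5 against 5. Relations over tumors used deviations from group means, 100000 permutations within groups and adjustment over 4 pairs. Fits and relations were tested on simulated data. Named genes were the 9 members, up to 4 called genes with the largest absolute change from each list and comparison (of which some are printed, chosen after their values were seen), and the 5 genes most like each member with a median of at least 1 CPM. The lists held 165 genes in 15 groups, of which 3 were not matched. One list gene is not reported here by name. The 9 genes, the lists and the tests were chosen with earlier results of these data known.

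Alternatives were DESeq2 1.42.0, its size factors, other filters, the replicate number as a block, 1 fit of all tumors, and leaving out each library. Same-numbered libraries deviated together in culture (correlations of 0.184 to 0.491) and between lines in BALB/c mice (0.100 to 0.491), but the labels do not say that equal numbers pair libraries. The main fits had no block, and fits with it are given as an alternative only. Leaving out the 2 D2.1 tumors with keratin or milk transcripts was added after the data were seen. Tables used Python 3.11.15, numpy 2.4.6 and scipy 1.17.1, and plots matplotlib 3.10.9.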

Additional observations from a re-analysis of the deposited data

Results flagged for a closer look

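Of 36 combinations of the 9 genes and 4 tumor groups tested for a sample far from the others, 3 had one, where chance gives about 1 in 20. Csf3r in replicate 4 of the D2.1 tumors in SCID-beige mice was at 25.7 CPM, with the other 4 at 49.8 to 64.6 CPM. Ly6g in replicate 3 of the D2.1 tumors in BALB/c mice was at 0.0581 CPM, which is 1 count, and in replicate 4 of the D2A1 tumors in SCID-beige mice at 0.186 CPM, which is 3 counts, with 0 counts in every other tumor of those groups. A group with counts in a single tumor is always flagged, and a group at 0 throughout, as Ly6g in D2A1 tumors of BALB/c mice, never is. The rate of 1 in 20 therefore does not hold for Ly6g.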

How the results depend on the processing

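Of 544 values of single members under the alternatives, 509 kept their direction and side of the threshold, 26 turned direction, 5 gained and 4 lost the call. DESeq2 called 2 members between the lines in SCID-beige mice and 1 between hosts in D2A1 tumors. With 1 library left out, the number of members called was 0 to 1 in culture, 2 to 3 in BALB/c mice and 1 to 2 in SCID-beige mice. The replicate block, for which the labels give no pairing, changed no count of members called. Same-numbered tumors correlated at -0.161 to 0.344 between lines in SCID-beige mice and at -0.441 to 0.169 between hosts. Between the lines in SCID-beige mice the block gave log2 fold changes of 0.47 for S100a8 and 0.13 for S100a9.

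The cause of the turned directions was not tested. Leaving out single tumors gave -0.35 to 0.88 for S100a8, -0.49 to 0.54 for S100a9 and -0.40 to 0.23 for Il1b between the lines in SCID-beige mice. For Csf3r between hosts it gave -0.11 to 0.17 in D2.1 and -0.074 to 0.62 in D2A1 tumors, and for the interaction -0.45 to 0.80 for S100a8, -0.068 to 0.96 for S100a9, -0.61 to 0.089 for Csf3r and -1.01 to 1.23 for Csf3. Without the 2 D2.1 tumors with keratin or milk transcripts, Csf3r between hosts was -0.072 and the interaction of Csf3 -1.35. Csf3 and Csf3r had r = -0.135 over D2.1 tumors alone. Leaving out single tumors gave r of 0.401 to 0.677 for Il1b and Csf3r, which passed without replicate 3 of the D2.1 tumors in SCID-beige mice (adjusted permutation p = 0.0312), and of 0.301 to 0.701 for Csf3r and Cxcr2, which passed without the D2A1 tumor numbered 4 from a BALB/c host (adjusted permutation p = 0.0416).

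Over all genes, calls between hosts in D2.1 tumors numbered 133, against 588 by DESeq2, 275 without a filter, 261 in 1 fit of all tumors, 14 with the block, 11 without the 2 keratin or milk tumors and 26 to 314 with 1 tumor left out. In D2A1 tumors they numbered 170, against 518 by DESeq2, 0 with the block (edgeR) and 27 to 172 with 1 tumor left out. The interaction had 3, against 92 by DESeq2, 7 without a filter, 6 with the other size factors, 0 without the 2 tumors and 0 to 12 with 1 left out, with 1355 at an unadjusted p under 0.05 in edgeR. Depth limits Ly6g and Csf2, which were near the floor of 3 counts, and to a lesser extent Retnlg, which was above it in 12 of 18 tumors.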

Other observations

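Lists of other tissues gave further differences beside the 9 genes. Red cell and platelet genes were lower in D2.1 than in D2A1 tumors in SCID-beige mice in 4 of 6 tested and higher in 1, and 1 was higher and 1 lower of 6 in BALB/c mice (edgeR). Alas2, which makes heme precursors in red cells, was at 0.838 ± 0.345 against 13.7 ± 24.5 CPM in SCID-beige mice (SD, n = 5 each; log2 fold change -4.01 ± 0.95, adjusted p = 0.00558, edgeR). Replicate 5 of the D2A1 tumors, which stood apart by red cell transcripts, held 57.5 CPM of Alas2 against 2.37 to 3.53 CPM in the others of its group, and without it the log2 fold change was -1.73 (adjusted p = 0.0087, edgeR) and the list again had 4 genes lower and 1 higher of 6. DESeq2 called 1 higher and 1 lower of 5. Skeletal muscle markers were higher in D2.1 tumors in 1 of 6 tested in BALB/c mice (4 with the replicate block, 0 without the D2.1 tumors that held keratin or milk transcripts) and 1 of 3 in SCID-beige mice, and adipocyte markers were called in 0 of 5 and 0 of 4 (edgeR). Their part in the levels of the 9 genes was not tested.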
